A study of Mus musculus with 18 samples.

Results

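The endothelin system of the mouse was described through 7 genes chosen by name: the ligand genes *Edn1*, *Edn2* and *Edn3*, the receptor genes *Ednra* and *Ednrb*, and *Ece1* and *Ece2*, which encode endothelin-converting enzymes. All 7 were present among the 78239 genes of the count tables, and the rule that chose them was their names. RNA sequencing had been done on 18 libraries. Retinas came from mice that received a subretinal injection of AAV::*nsHif1a* or AAV::eGFP (5 libraries each) between postnatal days 29 and 32 and were harvested at 3 wpi. *nsHif1a* encodes a Myc-tagged HIF1A with amino acid exchanges that keep the protein stable and active in normal oxygen, and a rod-specific promoter drove it in the retina, where only a part of the area is reached by the vector. The labels give the mice as C57BL/6J, whereas the methods of the study name wild-type 129S6. In the second experiment, 661W cells, a photoreceptor-like mouse cell line, were transfected with *nsHif1a* or eGFP under the ubiquitous CMV promoter (4 libraries each) and collected after 20 h. The control groups of both experiments carried eGFP in place of *nsHif1a*.

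Endothelins are small secreted peptides that are cut from longer precursors in steps, first by furin-like convertases and then by an endothelin-converting enzyme. They act on the G protein-coupled receptors EDNRA, which prefers endothelin-1 and endothelin-2, and EDNRB, which binds all endothelins. In the retina, *Edn2* is known as a ligand that injured photoreceptors make, and *Ednrb* is known from Müller glia and astrocytes, whereas EDNRA acts largely in the smooth muscle and pericytes of vessels.

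The part of each ligand gene that encodes the mature peptide is shown because it separates the 3 genes that the counts treat as distinct. The sequences below were read from the GRCm39 genome with the gencode annotation, cover 63 bases each, and carry in capitals every base that is not the one in *Edn2*. 
Edn2: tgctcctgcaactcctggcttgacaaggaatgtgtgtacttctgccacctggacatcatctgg
Edn1: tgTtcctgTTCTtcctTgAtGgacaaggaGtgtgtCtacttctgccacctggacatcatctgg
Edn3: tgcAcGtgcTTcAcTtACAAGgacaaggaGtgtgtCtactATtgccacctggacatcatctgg
*Edn1* had 10 bases and *Edn3* 15 bases other than those of *Edn2*. The capitals lie mainly in the first stretch, and the end that encodes the receptor-binding tail is the same in all 3 genes. No stretch of 50 bases was shared between any of the 7 transcript sets, so reads of the family members can be told apart.

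*Edn2* lies on chromosome 4 (GRCm39, chr4:120018403-120024557, plus strand) with 5 exons in its canonical transcript and no exon shared with another gene. The 250 bases before its annotated start are shown because HIF binds DNA through a short core, and the search was made for ACGTG and GCGTG on both strands. 
Edn2, chr4:120018153-120018402, plus strand: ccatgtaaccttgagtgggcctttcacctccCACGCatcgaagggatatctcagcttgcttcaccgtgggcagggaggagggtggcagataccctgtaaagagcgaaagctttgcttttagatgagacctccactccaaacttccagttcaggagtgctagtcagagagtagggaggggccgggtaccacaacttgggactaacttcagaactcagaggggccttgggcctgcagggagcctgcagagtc
The capitals mark the only match, GCGTG read on the minus strand, at positions -219 to -215 counted from the start. Windows of *Ednrb*, *Ece1* and *Edn3* held 1 match each, and those of *Edn1*, *Ednra* and *Ece2* held none. Of the same windows of 21770 protein-coding genes, 41.3% held at least 1 match to either core and 31.2% held GCGTG. A match is a stretch of letters and no evidence of binding. The windows also depend on the annotated start. A promoter window from the RefSeq annotation held all 250 bases for *Edn2*. The longest run shared with such windows was 232 bases for *Ece1* and 227 for *Ednrb*. It was 40 for *Edn1*, 12 for *Ece2* and 8 for *Edn3* and *Ednra*. The RefSeq windows were not searched, so an absent match holds only for the windows used here.

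The libraries held between 12898220 and 17809585 counts. *Hif1a* was measured at 150 to 164 CPM (counts scaled to the library size with TMM) in the eGFP cells and at 1222 to 1954 CPM in the *nsHif1a* cells, a log2 fold change (log2FC) of 3.26. In the retina, *Hif1a* stood at 638 to 698 CPM in the AAV::eGFP group and at 642 to 729 CPM in the AAV::*nsHif1a* group, and its log2FC of 0.05 had an adjusted *p*-value of 0.50 in limma, so that this gene gave no check of the retinal labels. *Xist* counts were found in all 5 AAV::*nsHif1a* retinas but in replicates 1 and 2 only of the AAV::eGFP retinas. The other 3 carried 2701 to 3509 counts of Y chromosome genes, and every retina with *Xist* counts carried 0. The *Xist* class thus separates female from male retinas as read from these counts, and sex was partly confounded with the group. The γ-crystallin genes of the lens took 0.0634% to 0.280% of all counts in the AAV::eGFP group and 0.0956% to 1.82% in the AAV::*nsHif1a* group, with the high values in replicates 1, 3 and 4. In the cells, replicates 1 and 2 of a group resembled each other, as did 3 and 4, with a median squared difference per gene of 1.46 to 1.56 times the sampling noise within these sets and of 3.28 to 7.11 times between them. Nothing in the labels says that the libraries of the cells came from separate cultures, and *p*-values then measure only the spread between these libraries.

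In control retinas, *Ece1* and *Edn2* were the most abundant of the 7 genes after division by exon length and *Ece2* the least. The place of *Ece2* is uncertain, since 54.3% of its exon bases belong also to *Eef1ece2*. To compare genes with each other, CPM was divided by the exon length in kb. On this scale the mean level in the AAV::eGFP group was 10.3 ± 0.992 CPM per kb (SD, n = 5) for *Ece1*, 6.76 ± 3.47 for *Edn2*, 1.45 ± 0.182 for *Ednrb* and 0.811 ± 0.177 for *Edn1*. *Ednra* (0.334 ± 0.0569), *Edn3* (0.323 ± 0.138) and *Ece2* (0.243 ± 0.0634) followed. The libraries of *Ece1* and *Edn2* overlapped, and so did those of *Ednra*, *Edn3* and *Ece2* with their neighbours in this order, whereas *Edn2* lay above *Ednrb*, *Ednrb* above *Edn1* and *Edn1* above *Ednra* without overlap. In the AAV::*nsHif1a* group *Edn2* took the first place, with 23.9 ± 9.25 CPM per kb against 10.5 ± 0.527 for *Ece1* and no overlap between them, and the order of the other 5 genes was the same.

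**Figure D1:**
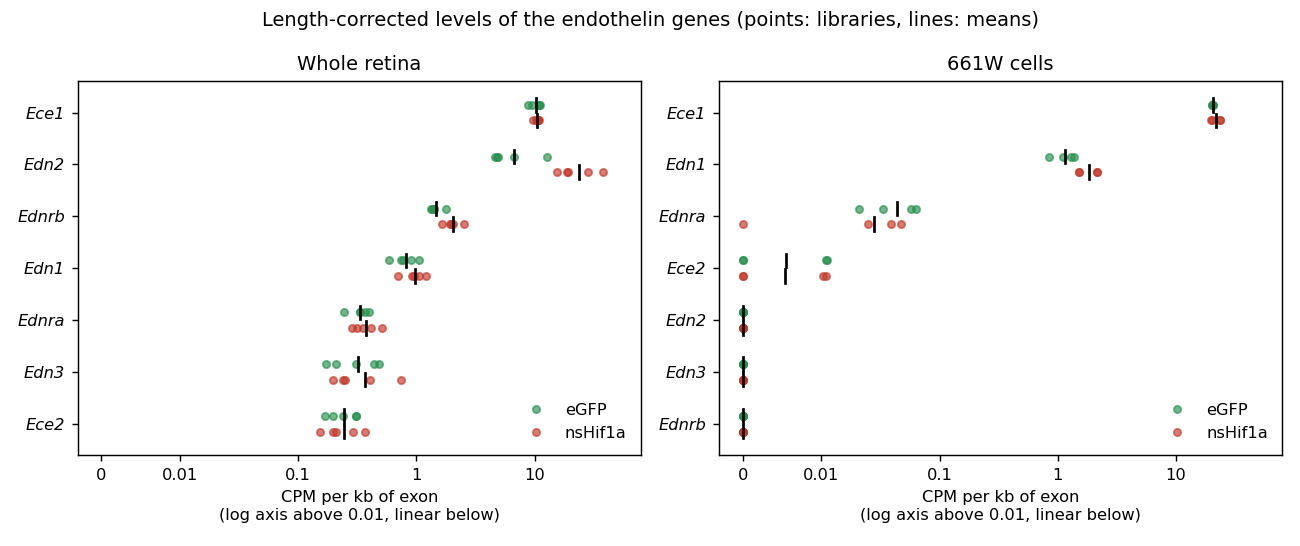
Level of the 7 genes in CPM per kb of exon (x axis, logarithmic above 0.01 and linear below) in whole retina and in 661W cells, where points are libraries (green eGFP, red nsHif1a) and black lines are group means. In the retina the red points of *Edn2* lie right of those of *Ece1*, and in the cells *Edn2*, *Edn3* and *Ednrb* lie at 0.

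*Edn2* was upregulated in AAV::*nsHif1a* retinas, by 3.78-fold, and was the only one of the 7 genes past both thresholds. The 5 AAV::eGFP libraries held 9.86, 18.7, 7.12, 7.0 and 6.78 CPM of *Edn2*, from 129, 289, 115, 106 and 90 counts in replicates 1 to 5. The 5 AAV::*nsHif1a* libraries held 22.5, 41.1, 27.4, 27.9 and 55.7 CPM, from 300, 652, 386, 409 and 869 counts. Every AAV::*nsHif1a* library lay above every AAV::eGFP library, with replicate 5 highest among the former and replicate 2 standing apart among the latter. The means were 9.88 ± 5.07 and 34.9 ± 13.5 CPM (SD, n = 5 each). In the limma fit over 18859 genes, log2FC was 1.92 (SE 0.30, 95% confidence interval 1.27 to 2.57) with an adjusted *p*-value of 0.0033. Past both thresholds (adjusted *p* under 0.05 and log2FC above 0.5 or below -0.5) were 1.08% of the tested genes upward and 0.912% downward, and 3.25% had groups apart with the AAV::*nsHif1a* libraries higher. The log2FC of *Edn2* was reached or exceeded by 0.366% of the tested genes, *Edn2* included.

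**Figure D2:**
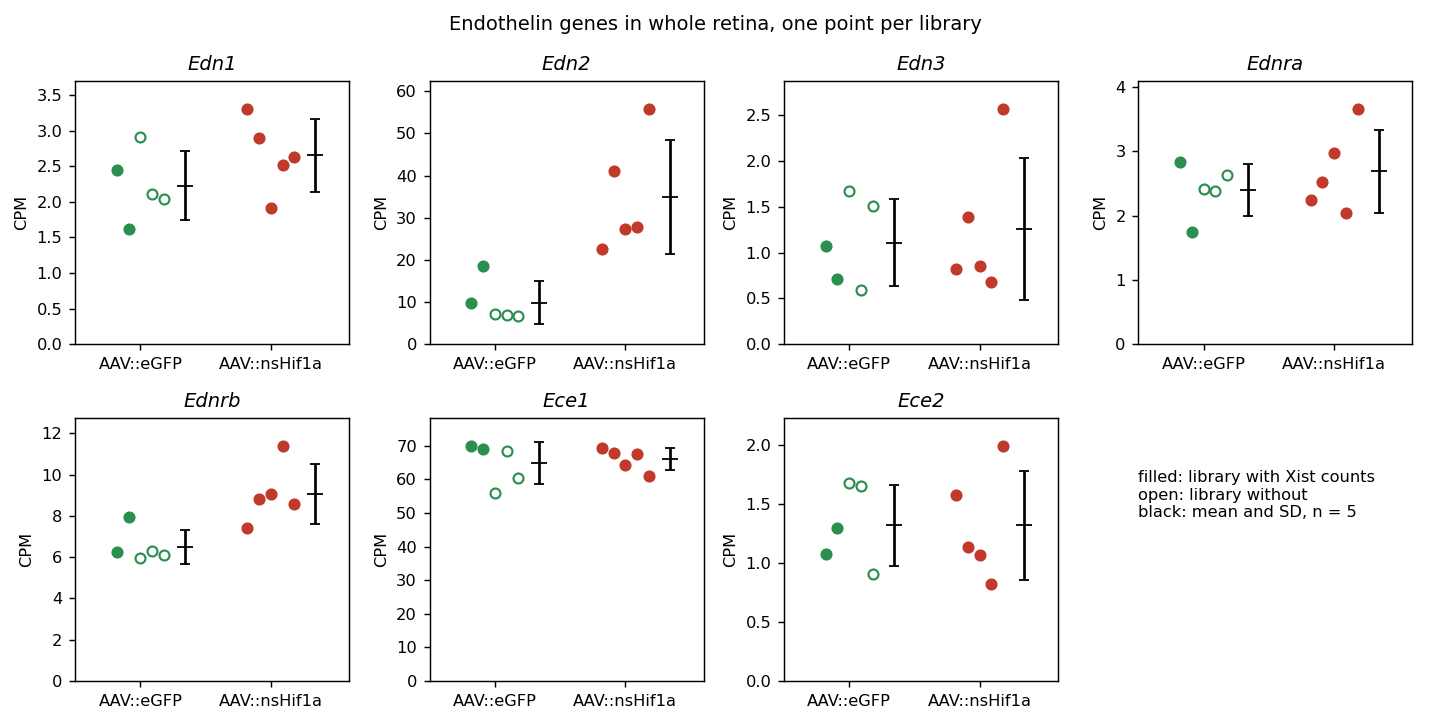
CPM of each of the 7 genes in the retinal libraries (y axis from 0, one point per library in the order of replicates 1 to 5, with mean and SD in black). Filled points are libraries with *Xist* counts and open points are the 3 AAV::eGFP libraries without, which hold the lowest *Edn2* values, 6.78 to 7.12 CPM.

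The size of this difference depended on which control retinas were used. The AAV::eGFP libraries with *Xist* counts held 9.86 and 18.7 CPM of *Edn2*, and those without held 6.78 to 7.12 CPM. With the *Xist* class as a covariate, log2FC was 1.26 with an adjusted *p*-value of 0.069 in limma. With only the 7 libraries that had *Xist* counts it was 1.25 with an adjusted *p*-value of 0.15 from 5 against 2 libraries. *Edn2* was not called in either setting. The part of the *Xist* class in the difference was not tested beyond these fits. The libraries with the highest *Edn2*, AAV::*nsHif1a* replicates 5 and 2, were those with the lowest γ-crystallin share of their group (0.0956% and 0.130%), and with the γ-crystallin level as a covariate log2FC was 2.33 with an adjusted *p*-value of 0.00044.

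*Edn1* and *Edn3*, the other ligand genes, showed no change past the thresholds in the retina. *Edn1*, which encodes the endothelin of vessel walls (chr13:42446301-42461466, plus strand), ranged from 25 to 47 counts and from 1.62 to 2.91 CPM in the AAV::eGFP libraries. It ranged from 27 to 46 counts and from 1.92 to 3.30 CPM in the AAV::*nsHif1a* libraries. The groups overlapped, and log2FC was 0.24 (95% confidence interval -0.17 to 0.66) with an adjusted *p*-value of 0.50 in limma. *Edn3*, best known for its action on neural crest cells of skin and gut (chr2:174602088-174625835, plus strand), had 9 to 27 counts per library in the AAV::eGFP group and 10 to 40 in the AAV::*nsHif1a* group. Its log2FC was 0.08 with a confidence interval of -0.72 to 0.88, and at these counts changes within that interval were not excluded. Thus *Edn2* made up most of the ligand RNA in every retina. After division by exon length, *Edn2* accounted for 75.9% to 94.1% of the summed ligand RNA in the AAV::eGFP libraries and for 91.4% to 95.7% in the AAV::*nsHif1a* libraries. The mean share was 83.6% ± 6.84 against 94.4% ± 1.71 (SD, n = 5 each), a difference of 10.7 percentage points (two-sided exact permutation test, *p* = 0.0159, where the smallest possible value is 0.00794). AAV::eGFP replicate 2, at 94.1%, was the control library that overlapped with the other group. Among the libraries with *Xist* counts alone the difference was 4.87 percentage points (exact permutation *p* = 0.190, where 5 against 2 libraries cannot go below 0.0952). In shares of counts, without division by exon length, the difference was 17.2 percentage points.

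Neither receptor gene passed both thresholds in the retina, and *Ednrb* passed the adjusted *p* alone. *Ednrb* (chr14:104052053-104081900, minus strand) was at 6.27, 7.95, 5.94, 6.28 and 6.10 CPM in AAV::eGFP replicates 1 to 5. It was at 7.42, 8.82, 9.08, 11.4 and 8.59 CPM in the AAV::*nsHif1a* replicates. The groups overlapped through AAV::eGFP replicate 2 alone, and 4 of 5 AAV::*nsHif1a* libraries lay above the highest control. The fitted log2FC was 0.48 (SE 0.12, 95% confidence interval 0.23 to 0.73), a fold of 1.40, with an adjusted *p*-value of 0.031 in limma. The adjusted *p* was thus passed and the fold threshold was not, and 3.31% of the tested genes passed the adjusted *p* in this direction. *Ednrb* passed both thresholds when AAV::eGFP replicate 2 (log2FC 0.55) or AAV::*nsHif1a* replicate 1 (0.54) was left out. The adjusted *p* threshold was missed in 12 of 20 alternatives, with adjusted *p*-values of 0.059 to 0.35 in limma or edgeR. Among these were the *Xist* class as a covariate (log2FC 0.34, adjusted *p* = 0.27), the γ-crystallin covariate, edgeR's quasi-likelihood test, and the omission of AAV::eGFP replicate 3, 4 or 5 or of AAV::*nsHif1a* replicate 2 or 3. In whole retina, more cells of a type and more RNA per cell cannot be told apart. The summed level of 11 Müller glia markers was 6164 to 6720 CPM in the AAV::eGFP group and 6307 to 6765 CPM in the AAV::*nsHif1a* group, and 0 of these markers passed both thresholds. Astrocyte markers summed to 81.3 to 134 and 101 to 196 CPM, and endothelial markers to 349 to 395 and 373 to 457 CPM. Of the tested astrocyte markers, *Gfap* had group means of 43.2 and 76.9 CPM. Those of *Pdgfra* were 26.7 and 26.8, of *Aldh1l1* 21.7 and 23.6, of *S100b* 5.61 and 5.16 and of *Pax2* 0.705 and 0.780. The most abundant endothelial markers were *Kdr*, at 208 and 250 CPM, and *Flt1*, at 108 and 94.4 CPM. None of the astrocyte or endothelial markers was called. The adjusted *p* alone was passed upward by *Slc1a3* of the Müller glia markers (log2FC 0.21, adjusted *p* = 0.030 in limma). *Kdr* of the endothelial markers passed it too (0.26, adjusted *p* = 0.049), and 0 astrocyte markers did. The part of these cell types in the *Ednrb* values was not tested.

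*Ednra* (chr8:78386590-78451552, minus strand) had 27 to 39 counts and 1.74 to 2.83 CPM in the AAV::eGFP libraries. It had 30 to 57 counts and 2.05 to 3.66 CPM in the AAV::*nsHif1a* libraries. The groups overlapped, and log2FC was 0.13 (95% confidence interval -0.26 to 0.52) with an adjusted *p*-value of 0.72 in limma. Of its exon bases, 36.7% lie opposite genes on the other strand, which the strand-specific counting separates. Mural cell markers, the cells in which EDNRA is best known, summed to 60.3 to 88.5 CPM in the AAV::eGFP group and 71.4 to 113 CPM in the AAV::*nsHif1a* group, with 0 of 9 tested markers called. The counts of *Ednrb* exceeded those of *Ednra* in all 10 retinas. The log2 ratio of the 2 counts (with 0.5 added to each) was 1.44 ± 0.419 in the AAV::eGFP group and 1.76 ± 0.448 in the AAV::*nsHif1a* group (SD, n = 5 each). The difference of 0.32 was within the spread (two-sided exact permutation test, *p* = 0.294), and the ratio of AAV::eGFP replicate 2, at 2.17, stood apart from 1.14 to 1.39 in the other controls. Without that library the difference was 0.50 (exact permutation *p* = 0.0476), and among the libraries with *Xist* counts alone it was 0.10 (exact permutation *p* = 0.857).

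Neither converting enzyme gene passed the test in the retina. *Ece1* (chr4:137589530-137692542, plus strand), the main enzyme that cuts the precursor called big endothelin, was the best measured gene of the family, with 802 to 1068 counts per control retina and 907 to 1076 per AAV::*nsHif1a* retina. Its CPM was 64.8 ± 6.26 and 66.0 ± 3.33 (SD, n = 5 each), and log2FC was 0.04 with a 95% confidence interval of -0.10 to 0.18. An increase of the size fitted for *Edn2* lies outside this interval. *Ece2* (chr16:20448332-20465273, plus strand), a related enzyme of nerve cells, had only 12 to 31 counts per library. Its log2FC was -0.05 with a confidence interval of -0.62 to 0.51. On the same strand, 54.3% of the *Ece2* exon bases belong also to *Eef1ece2*, a joined transcript of *Ece2* and its neighbour. *Eef1ece2* was listed at 0 or 1 counts in every library, and how reads in the shared bases were treated is not given in the sources used here, so that the *Ece2* values are uncertain.

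**Figure D3:**
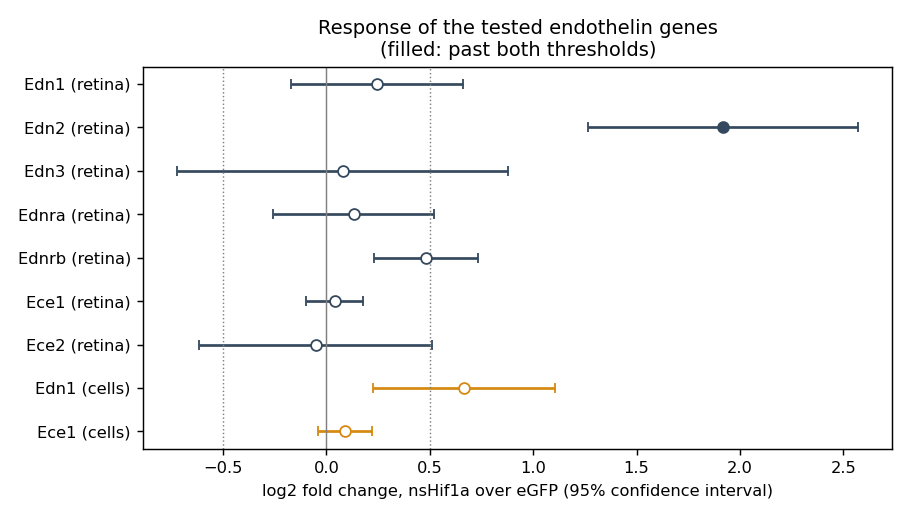
Log2 fold change of nsHif1a over eGFP with its 95% confidence interval (x axis) for the 7 genes tested in retina and the 2 tested in 661W cells. Dotted lines mark the fold threshold of 0.5 and the filled point, *Edn2* in retina at 1.92, is past both thresholds.

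**Figure D4:**
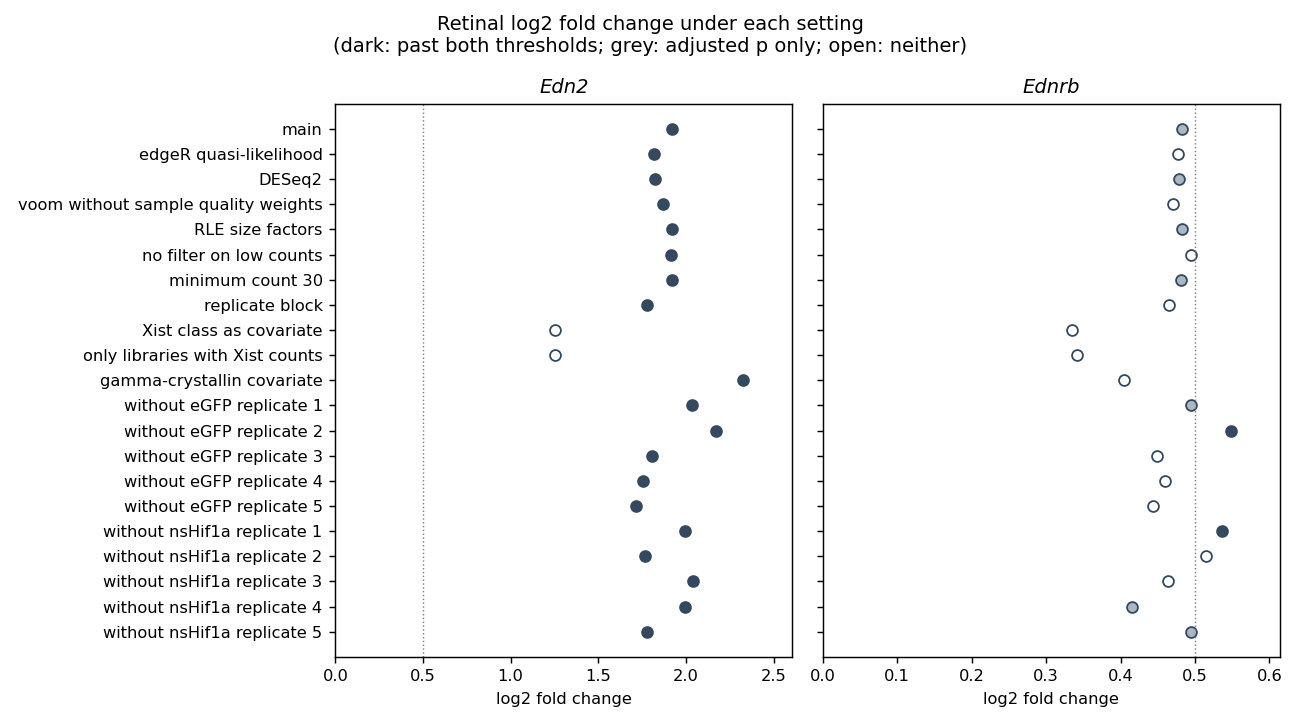
Log2 fold change of *Edn2* and *Ednrb* in retina (x axes from 0, with different ranges) under each setting named on the left, where dark points are past both thresholds, grey points past the adjusted p alone and open points past neither. For *Edn2* the 2 open points, near 1.25, are the settings that use the *Xist* class.

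In 661W cells only *Ece1* and *Edn1* were measured at more than a few counts. *Edn2*, *Edn3* and *Ednrb* had 0 counts in all 8 libraries, where 3 counts in a library, the limit that a count of 0 allows, correspond to 0.169 to 0.225 CPM. Such limits cover counting error only. *Edn2* at 6.78 CPM and *Ednrb* at 5.94 CPM in the lowest control retina lay above this limit. *Ednra* had 2 to 7 counts in the eGFP cells and 0 to 6 in the *nsHif1a* cells, and *Ece2* had 0 or 1 counts. Hence only *Edn1* and *Ece1* passed the filter on low counts, and no ratio of the receptors was formed in the cells. In the eGFP cells *Ece1* stood at 20.5 ± 0.216 CPM per kb (SD, n = 4), above *Edn1* at 1.16 ± 0.229, without overlap.

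The line was low for cone markers. The 8 cone markers summed to 2.10 to 4.71 CPM in the cells and to 820 to 1046 CPM in the retinas. Mural cell markers summed to 852 to 1064 CPM in the cells and to 60.3 to 113 CPM in the retinas. In the eGFP cells, *Acta2* (mean 433 CPM), *Tagln* (201), *Cspg4* (181) and *Pdgfrb* (79.9) made up most of this sum. Of the 10 mural markers, 3 had no counts in that group and 6 passed the filter on low counts. The cell type of the line was not tested.

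*Edn1* was higher in every *nsHif1a* library than in every eGFP library of the cells but did not pass the test over all genes. The eGFP libraries had 51, 36, 60 and 50 counts and 3.06, 2.33, 3.53 and 3.75 CPM in replicates 1 to 4. The *nsHif1a* libraries had 104, 84, 71 and 70 counts and 5.85, 5.90, 4.15 and 4.15 CPM. The groups did not overlap, which held in this direction for 7.51% of the 15962 genes tested in the cells. Mean levels were 3.17 ± 0.627 and 5.01 ± 0.997 CPM (SD, n = 4 each). The fitted log2FC was 0.66 (SE 0.20, 95% confidence interval 0.23 to 1.10), a fold of 1.59, with an unadjusted *p*-value of 0.0074 and an adjusted *p*-value of 0.10 in limma. None of the 2 tested members was thus called, against 1.21% of all genes upregulated and 0.0626% downregulated past both thresholds. With edgeR and with DESeq2 no member was called either. The 2 sets of replicates differed. In replicates 1 and 2, mean *Edn1* was 5.88 CPM with *nsHif1a* and 2.70 CPM with eGFP, and in replicates 3 and 4 it was 4.15 and 3.64 CPM, with 2 libraries per group and no test. *Edn1* passed both thresholds when *nsHif1a* replicate 3 (log2FC 0.87, adjusted *p* = 0.0043 in limma) or 4 (0.88, adjusted *p* = 0.0041) was left out. *Ece1* had 1749 to 2178 counts in the eGFP cells and 2107 to 2647 in the *nsHif1a* cells. Its CPM was 129 ± 1.37 and 137 ± 12.7 (SD, n = 4 each), with the *nsHif1a* replicates 1 and 2 above all controls and 3 and 4 below them. Its log2FC was 0.09 with a confidence interval of -0.04 to 0.22.

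The difference between the effects in retina and cells was tested for *Edn1* and *Ece1* in a fit over all 18 libraries. For *Edn1*, log2FC in retina minus log2FC in cells was -0.38 (95% confidence interval -0.97 to 0.20) with an adjusted *p*-value of 0.54 in limma. For *Ece1* it was -0.02 (-0.20 to 0.17) with an adjusted *p*-value of 0.96. Neither passed, against 2.33% of all genes tested. For *Edn2* and *Ednrb* no such difference can be formed, since the cells held no counts of either gene.

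Genes that act before and after the receptors were counted from lists written by hand. Of 10 genes for processing and breakdown of the peptides, 8 were tested in the retina and 0 passed both thresholds, with a median log2FC of -0.15 against -0.0021 over all genes. *Pcsk5*, a furin-like convertase named here after its values were seen, passed the adjusted *p* alone. It went from 15.4 ± 1.45 to 11.4 ± 0.744 CPM with groups apart, a log2FC of -0.47 with an adjusted *p*-value of 0.0065 in limma. Of 30 genes behind the receptors (G proteins, phospholipase C, calcium release, protein kinases and receptor regulators), all were tested, 0 passed both thresholds and the median log2FC was 0.06. The adjusted *p* alone was passed by 5 of them, against 5.79% of all genes in either direction. Named after their values were seen, *Rock2* (0.28), *Grk2* (0.23) and *Rhoa* (0.15) were higher on the log2FC scale, and *Mylk*, the kinase that contracts smooth muscle, (-0.44) and *Prkca* (-0.18) were lower. In the cells 0 of 4 and 0 of 25 tested genes of these lists were called.

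Of 14 genes that are often measured beside *Edn2* in photoreceptor injury, 5 rose in the retina past both thresholds (1.08% of all genes did). All 14 had a log2FC above 0, with a median of 0.63 against -0.0021 over all genes. *Fgf2*, a survival factor of photoreceptors, went from 19.9 ± 1.64 to 78.9 ± 36.3 CPM (SD, n = 5 each), a log2FC of 1.87 with an adjusted *p*-value of 0.0022 in limma. *Lif*, a cytokine of the injured retina, went from 1.3 ± 0.287 to 3.60 ± 0.974 CPM (log2FC 1.48, adjusted *p* = 0.0058). Both had groups apart. *Stat3*, which carries the LIF signal to the nucleus, had a log2FC of 0.69 (adjusted *p* = 0.0081), its feedback inhibitor *Socs3* one of 1.18 (adjusted *p* = 0.021) and *Cebpd* one of 1.67 (adjusted *p* = 0.017). *Gfap*, the usual marker of gliosis, did not pass, with 43.2 ± 19.1 and 76.9 ± 33.6 CPM and an adjusted *p*-value of 0.14. These lists were written with earlier results of these libraries known, so the count is no independent support. AAV::*nsHif1a* replicate 1 was the lowest of its group for *Edn2*, *Fgf2*, *Lif*, *Socs3* and *Stat3*, and replicate 5 was the highest for *Edn2*, *Fgf2*, *Socs3* and *Stat3*. With the *Xist* class as a covariate *Fgf2* alone of the 14 was called (log2FC 1.88, adjusted *p* = 0.022), and with the libraries that had *Xist* counts alone 0 were called, although the log2FC of *Fgf2* was 1.88 and that of *Lif* 1.43. In the cells 0 of 12 tested genes of this list were called, and the median log2FC was -0.14. Summed microglia and macrophage markers lay at 31.3 to 192 CPM in the AAV::eGFP group and at 62.6 to 196 CPM in the AAV::*nsHif1a* group. All 10 of these markers had a log2FC above 0 (median 0.96) and 0 were called, and their part in the *Edn2* and injury values was not tested. Markers of the retinal pigment epithelium summed to 26.4 to 754 and 37.2 to 873 CPM, pigment cell markers to 63.4 to 173 and 41.8 to 234 CPM, and ganglion cell markers to 952 to 1068 and 854 to 1109 CPM, with 0 called in each list.

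**Figure D5:**
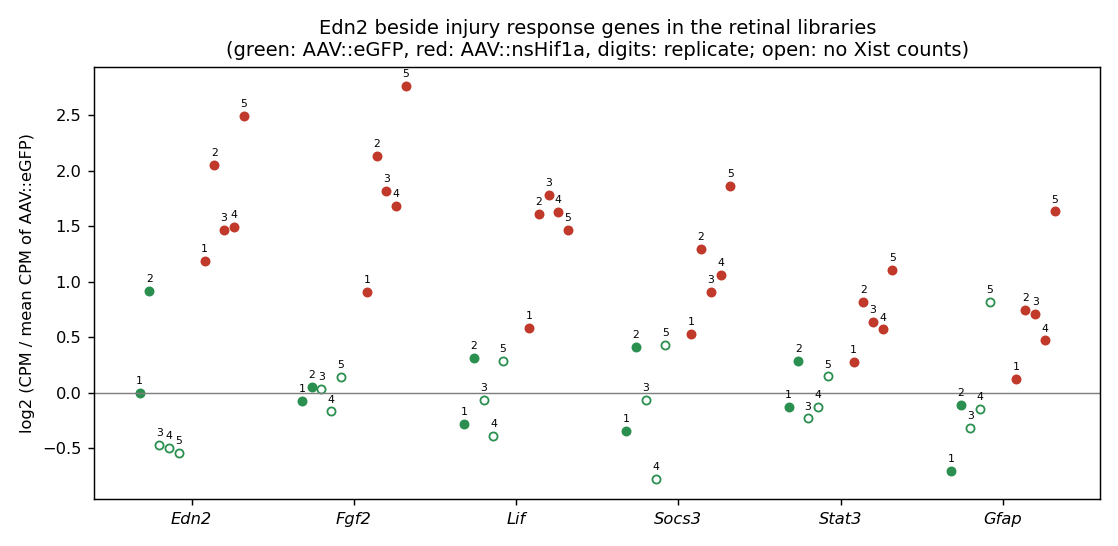
Level of *Edn2* and 5 injury response genes in each retinal library, as log2 of CPM over the mean CPM of the AAV::eGFP group (y axis), with replicate numbers beside the points. Red points (AAV::nsHif1a) lie above all green points (AAV::eGFP) for *Edn2*, *Fgf2*, *Lif* and *Socs3*, and overlap with them for *Stat3* and *Gfap*.

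The genes whose profile over the 10 retinas was most like that of *Edn2* were found by the root-mean-square distance between z-scored log2 CPM values, over 18859 genes. They were *Ttyh2* (0.182 SD units), *Gm20742* (0.189), *Cd47* (0.226), *Pbxip1* (0.228) and *H2-Q2* (0.231). Of these, *Pbxip1* (log2FC 0.64), *Gm20742* (2.68) and *H2-Q2* (4.83) passed both thresholds. The nearest to *Ednrb* were *Sat1* (0.247), *Arpc2* (0.273), *Rps27a* (0.330), *Plscr1* (0.332) and *Gm13680* (0.333). In the cells, over 8 libraries and 15962 genes, *Ddias* (0.148), *Synrg* (0.164), *Mmp23* (0.171), *Prune2* (0.194) and *Gvin-ps2* (0.195) were nearest to *Edn1*. *Nsdhl* (0.0917), *Sema3f* (0.0938), *Fry* (0.0978), *Nod1* (0.105) and *Apol6* (0.106) were nearest to *Ece1*. Profiles that follow the 2 groups or the sets of replicates are near each other by construction of this measure.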

How the data were processed

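RNA of mouse retinas and 661W cells was sequenced as stranded mRNA libraries. The authors aligned the paired-end reads to GRCm39 with Rsubread, summarised them to genes with featureCounts (strand-specific, antisense setting; gencode M36 basic annotation), and deposited whole-number counts without normalization, 1 table per experiment. Gene names and positions were taken from gencode M39 on GRCm39, which matched 78168 of 78239 genes. Samples were grouped by their labels.

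From the deposited counts, genes were filtered with filterByExpr (minimum count 10), scaled by TMM in edgeR 4.0.16 and fitted with voomWithQualityWeights in limma 3.58.1 under R 4.3.3, with Benjamini-Hochberg adjustment over all genes. A call required an adjusted *p*-value under 0.05 with an absolute log2FC above 0.5, and the difference between experiments at the adjusted *p*-value alone. The methods of the study name the same functions and call thresholds, in other versions and with a count minimum derived from the library size. Single values were compared by exact permutation tests in SciPy. The procedure was tested on simulated data. Alternatives, as far as they apply to a result, were DESeq2 1.42.0, edgeR's quasi-likelihood test, no sample weights, RLE factors, other count minimums, no fold threshold, the *Xist* class, the γ-crystallin level, the 2 sets of cell replicates, the replicate number as a block, and each library left out. Depth was 12898220 to 17809585 counts per library.

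The members and lists were chosen with earlier results of these data known. Named were the 7 members, *Hif1a*, called genes of the 3 pathway lists (others of these lists were named after their values were seen), the 5 genes nearest in profile to *Edn2*, *Ednrb*, *Ece1* and *Edn1*, and the marker lists, of which that of rods is not reported here. In the cells, libraries with the same number in the labels deviated together from their group means (correlations 0.227 to 0.269). Libraries of the same set with different numbers did so as well (0.246 to 0.287), and 4 of 8 libraries correlated best with their own number. The sets of replicates thus give the same pattern, and a pairing by number was not shown. The main fit used no pairing, and the replicate number entered only as a block among the alternatives.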

Additional observations from a re-analysis of the deposited data

Results flagged for a closer look

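A single library, AAV::eGFP replicate 2, lay far from the others of its group in 3 of 24 groups of values examined. For *Edn2* its gap to the next library was 0.741 of the range of the group, for *Ednrb* it was 0.832, and for the log2 ratio of *Ednrb* to *Ednra* it was 0.757, where the critical value for 5 libraries is 0.71. The *Edn2* value was 18.7 CPM against 6.78 to 9.86 CPM in the other controls, and the *Ednrb* value 7.95 CPM against 5.94 to 6.28 CPM. The ratio uses the same *Ednrb* counts, so these are not independent, and chance flags about 1 in 20 groups. No difference between retina and cells passed its test for *Edn1* or *Ece1*.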

How the results depend on the processing

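Limits: *Edn3* and *Ece2* had at most 40 counts per retinal library, and control and AAV::*nsHif1a* retinas differed in *Xist* class, that is in sex as read from the counts. The number of members called in the retina was 1, but 0 with the *Xist* class as a covariate or with only the libraries that had *Xist* counts, and 2 (*Edn2* and *Ednrb*) with no fold threshold. It ranged from 1 to 2 when libraries were left out in turn. The log2FC of *Edn2* was 1.26 (adjusted *p* = 0.069, limma) and 1.25 (0.15) in the 2 *Xist* settings and 1.72 to 2.17 with libraries left out, called each time. The replicate block left *Edn2* called in the retina (log2FC 1.78, adjusted *p* = 0.013). In the retina same-numbered libraries correlated from -0.148 to 0.138 and 3 of 10 correlated best with their own number, so they share only a number. The *Edn2* share of ligand RNA differed by 4.87 percentage points with *Xist* libraries alone, by 17.2 in shares of counts and by 10.7 under the replicate block (exact sign-flip *p* = 0.0625, the smallest possible), and by 8.81 to 13.4 with libraries left out. The receptor ratio differed by 0.14 to 0.50 with libraries left out and by 0.10 with *Xist* libraries alone.

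In the cells, 0 members were called except when a library was left out, where the number was 0 to 1 and the log2FC of *Edn1* was 0.44 to 0.88. Without *nsHif1a* replicate 3 or 4 many more genes were called over all genes, 1201 and 1194 upregulated against 193. Summing replicate 1 with 2 and replicate 3 with 4 gave 0.65 (adjusted *p* = 0.89) for *Edn1*. The block in the cells (0.60, adjusted *p* = 0.18) changed no call of a member. No member was called for the difference of the experiments in any of 25 alternatives.

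Signs that turned belonged to genes without a call. *Ece1* in the retina was -0.070 with the *Xist* covariate, -0.069 with *Xist* libraries alone and -0.0075 to 0.074 with libraries left out, *Ece2* was 0.018 in both *Xist* settings, 0.068 with the γ-crystallin covariate and -0.17 to 0.046 with libraries left out, and *Edn3* was -0.14 to 0.25 with libraries left out. *Ece1* in the cells was -0.022 to 0.18, and its difference of experiments -0.13 to 0.056, with libraries left out. The cause was not tested.

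The pathway lists were counted again under these alternatives, chosen after seeing the data. Of the injury list, 5 genes were called in the retina, 8 under the replicate block, 1 with the *Xist* covariate and 0 with *Xist* libraries alone. All of these were higher. In the cells 1 of it (*Timp1*) was called with the sets as a covariate and 0 to 4 with libraries left out, all of them lower. Of the receptor list, 1 (*Mylk*) was called lower in the retina with the γ-crystallin covariate, and 0 to 2 (*Itpr1* and *Mylk*) were called higher in the cells with libraries left out.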
